A study of Ovis aries with 4 samples.

Results

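The regions described here were the m6A peaks of sheep ovary that the deposited annotation labels 3' UTR and that lie within 1 exon. N6-methyladenosine (m6A) is a methyl group on internal adenosines of RNA, placed on messenger RNAs mainly by a complex of METTL3 and METTL14. It is known to be dense around the end of the coding sequence and in the 3' untranslated region (3' UTR), the stretch between the stop codon and the poly(A) tail. Proteins with a YTH domain bind the mark and act on decay and translation of the transcript, and the same stretch carries the sites of microRNAs and of many RNA-binding proteins. Immunoprecipitation of RNA fragments with an antibody against m6A, set against the input RNA, gives peaks where the fragments pile up.

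Members were chosen by 2 features of each deposited row, in both lists and on both strands. The label had to be 3' UTR, and the stated width had to equal the distance from start to end, which leaves out peaks that cross an intron. This gave 4010 members among 8034 peaks. The ovaries came from Cele black sheep, a young group aged 1 to 2 years and an aged group aged 5 to 6 years. The labels name no treatment, genotype or number of animals. Each age had 1 immunoprecipitate and 1 input, and 1 peak list per age was used here, so no difference between ages has a replicate check and none was tested. Of 12 granulosa cell markers 4 had a peak of any label in either list, of 10 stromal markers 7, of 13 oocyte markers 7 and of 8 macrophage markers 5. Endothelial markers had one in 8 of 10 cases, theca and luteal markers in 5 of 9 and smooth muscle and pericyte markers in 4 of 7. Surface epithelium markers had one in 4 of 5 cases and T cell markers in 1 of 3. Neither of the 2 erythroid markers had one.

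Members made up 43.1% of the young list (1886 of 4378 peaks, Wilson 95% interval 41.6 to 44.6) and 58.1% of the aged list (2124 of 3656, 56.5 to 59.7). The young members lay in 1716 genes and the aged members in 1905. The young share was alike on both strands, with 42.0% of plus-strand and 44.4% of minus-strand peaks. In the aged list it was 49.3% (47.0 to 51.5) on the plus strand and 67.4% (65.2 to 69.5) on the minus strand. Peaks with the stop codon label within 1 exon, the class most like the members, showed the opposite order. They were 37.0% of young plus-strand and 34.6% of young minus-strand peaks, 22.1% of aged plus-strand peaks and 0.730% (13 peaks) of aged minus-strand peaks. These intervals cover counting error only.

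The fold of a peak over input and its p-values are the authors' own and are used within a list. Young members had a median fold of 2.13 (quartiles 1.81 and 2.60, highest 7.67), and aged members one of 1.88 (1.67 and 2.24, highest 8.50). Of all young peaks 12.8% had a fold of at least 3, against 14.7% (13.2 to 16.4) of the members and 10.1% (8.66 to 11.6) of the stop codon peaks within 1 exon. Of all aged peaks 6.51% had such a fold, against 6.26% (5.31 to 7.37) of the members and 7.26% (5.16 to 10.1) of those stop codon peaks. The stop codon peaks had stronger p-values than the members of the same list, with a median log10 p of -19.9 against -13.5 in the young list and of -8.79 against -6.07 in the aged list. An adjusted p above 0.05 was given for 1 young and 66 aged members.

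Aged members were wider than young ones. Widths of at most 160 bases were found in 53.2% of young members (1004 of 1886) and 37.2% of aged members. Widths of at least 300 bases were found in 6.73% of young and 20.5% of aged members, and widths of at least 500 bases in 2 young and 78 aged members. The median width was 151 bases for young and 200 bases for aged members, and the upper quartiles were 201 and 292 bases. Over all peaks of the lists the medians were 195 and 201 bases and the upper quartiles 247 and 300 bases. The longer upper range of the aged list was therefore not particular to the members. Widths came in steps, and 98.7% of young and 97.9% of aged members had a width from 6 bases below to 1 base above a multiple of 50. Width and fold were hardly related across members, with a Spearman rho of 0.10 among young and 0.03 among aged members. These are correlations across peaks of 1 list.

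**Figure D1:**
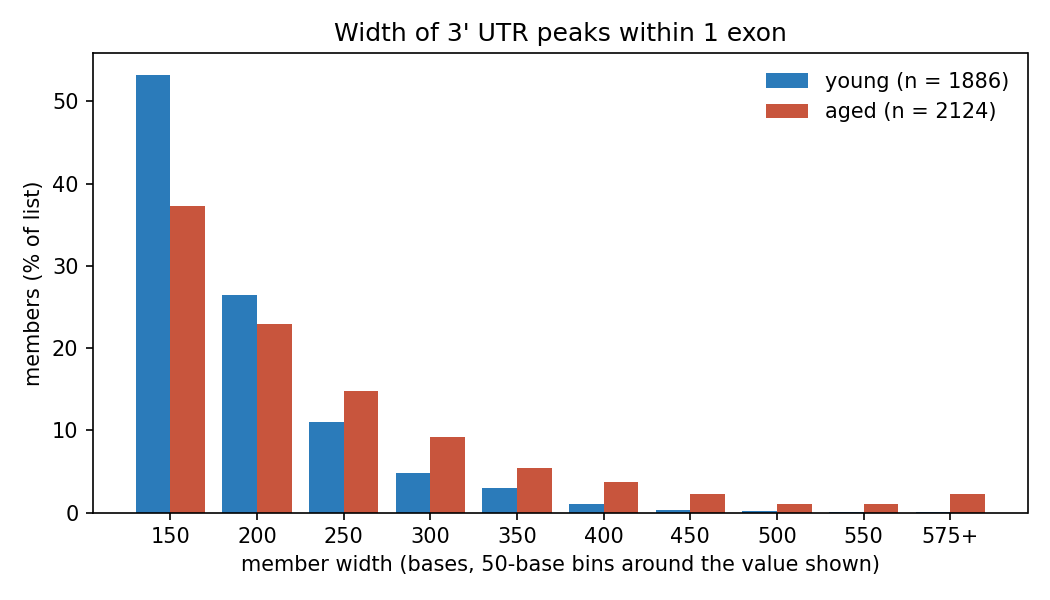
Width of members in bases (x axis) as a percentage of the members of each list (y axis), in bins centred on multiples of 50 bases. The 1886 young members pile up at 150 bases, and the 2124 aged members reach further to the right, with 20.5% at 300 bases or more.

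The widest members illustrate this spread. In the aged list the member of PLCG1, a phospholipase that acts downstream of growth factor receptors, covered 1342 bases on chromosome 13 (69816045 to 69817386, fold 2.00), and PLCG1 had no young peak. The aged member of the matrix gene ECM2 was 994 bases wide (fold 3.60, adjusted p 0.0661). The young member of ECM2 was 149 bases wide (2.45) and did not overlap the aged one. The adhesion receptor gene ADGRA3 had an aged member of 944 bases (2.00) and a young one of 150 bases (1.82). The widest young members were those of TM2D2 with 597 bases (3.00), SYS1 with 550 bases (2.14) and the RNA-binding protein gene RBM26 with 499 bases (2.12). TM2D2 and RBM26 had aged members too, of 200 and 250 bases, and SYS1 had no aged peak.

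Members lay upstream of the end of their gene at distances that also came in steps. Gene ends were read from RefSeq's sheep gene table (assembly ARS-UI_Ramb_v3.0). The deposited files name chromosomes by accession and no build, so the table was set against the peaks labelled stop codon. In the young list 726 of 1030 such peaks on the plus strand ended at the last base of the table's gene. On the young minus strand 548 of 776 did, and on the aged plus strand 330 of 515. In each of these cases, peaks of any label that ended there fell on 28 chromosome names, Unknown included. Of the 46 aged minus-strand peaks labelled stop codon 0 ended at the last base. For the aged minus strand the fit of the table thus rests on the young list, and its distances may carry an offset of that list. Distances are genomic, introns included. They could be taken for 1833 young and 2074 aged members, and 43 young and 41 aged members lay beyond the gene end of the table. Among the members 1 young and 0 aged ended at the last base itself. In the young list 1274 of 1806 peaks labelled stop codon ended at that last base. Stop codon peak is therefore used here as the name of a deposited label, not of a known position at the stop codon. Neither this label nor the 3' UTR label was checked against exon or coding positions. The median distance was 996 bases (quartiles 239 and 2880) for young and 592 bases (147 and 2314) for aged members.

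A distance of 45 to 55 bases from the gene end was the most frequent one, and on the aged minus strand it was more frequent than elsewhere. It held 24.7% (291 of 1176, 22.4 to 27.3) of aged minus-strand members, 10.2% (8.43 to 12.4) of aged plus-strand members, 10.7% (8.89 to 12.8) of young plus-strand members and 13.2% (11.1 to 15.6) of young minus-strand members. The 1176 aged minus-strand members had a median distance of 448 bases, against 744 bases on the aged plus strand. Distances above 5000 bases were found for 13.5% of young and 10.6% of aged members. The young member of the checkpoint kinase gene NEK11 lay 125763 bases from the gene end, and both leading members of LZIC lay 13298 bases from it.

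**Figure D2:**
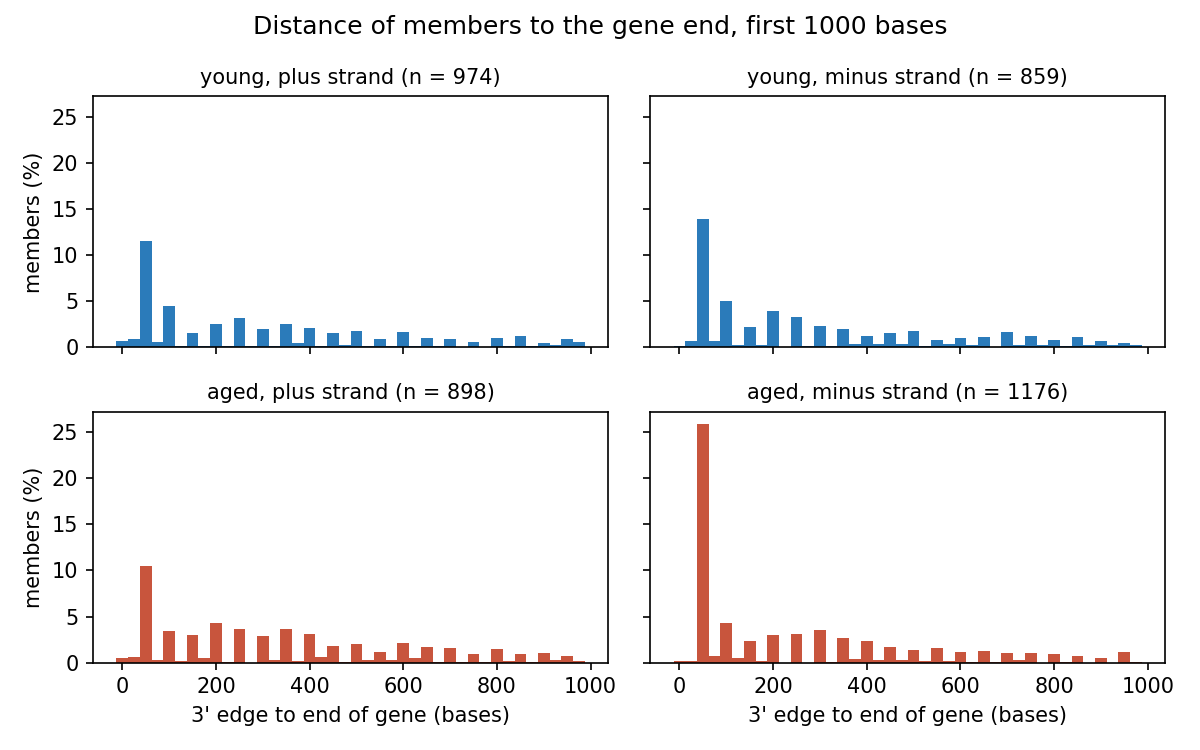
Distance in bases from the 3' edge of a member to the end of its gene (x axis, up to 1000 bases, 25-base bins) as a percentage of the members with a distance of at least 0 (y axis), by list and strand. All panels have their highest bar at 50 bases, and that of the aged minus strand is the tallest, with 24.7% of the members between 45 and 55 bases.

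The aged members near the gene end were often the counterparts of young peaks with another label. Of the 309 aged minus-strand members that ended at most 60 bases from the gene end, 138 overlapped a young stop codon peak within 1 exon, and 126 of those young peaks ended at the last base. Over the whole aged minus strand there were 187 such pairs of an aged member and a young stop codon peak. In 168 of them (89.8%) the aged member stopped 45 to 55 bases short of the young peak, and in 0 did both have the same 3' edge. On the plus strand there were 58 such pairs, 32 of them (55.2%) with that offset. The young peak reached the gene end in 141 of the 187 minus-strand pairs and in 39 of the 58 plus-strand pairs. Among aged members 0 did so. In those pairs a shared 3' edge could thus not occur, and some offset was given by the way the labels fall. The 0 shared edges are therefore not a separate result for them. CLDN5, the claudin of endothelial tight junctions, is an example of the offset. Its aged member on chromosome 17 (72766773 to 72766967) ended 48 bases upstream of its young stop codon peak (72766725 to 72767113). The cell cycle inhibitor gene CDKN1B on chromosome 3 and the collagen-binding integrin gene ITGA1 on chromosome 16 each had an aged member ending 50 bases upstream of the young stop codon peak, which reached the last base of the gene. The cytokine signalling inhibitor gene SOCS3, on the plus strand of chromosome 11, showed the same offset of 50 bases. Why the edges differ was not tested.

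Fewer members had a counterpart than had none. Counting any overlap on the same strand, down to 1 base, 567 young members (30.1%, 28.0 to 32.2) overlapped an aged member, and 567 aged members (26.7%, 24.9 to 28.6) a young one. Counting partners of any label, 35.5% (33.3 to 37.7) of young members had a partner, against 34.3% of all young peaks. The corresponding values were 39.3% (37.2 to 41.4) of aged members and 41.0% of all aged peaks. On the aged minus strand 23.2% (20.9 to 25.7) of members overlapped a young member and a further 15.5% (13.6 to 17.6) had no such partner but a stop codon one. On the aged plus strand these shares were 31.2% (28.3 to 34.3) and 6.50% (5.08 to 8.28). Of the 883 young minus-strand members 0 had no member partner but a stop codon one. On this strand 46 aged peaks carried the stop codon label, 13 of them within 1 exon.

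**Figure D3:**
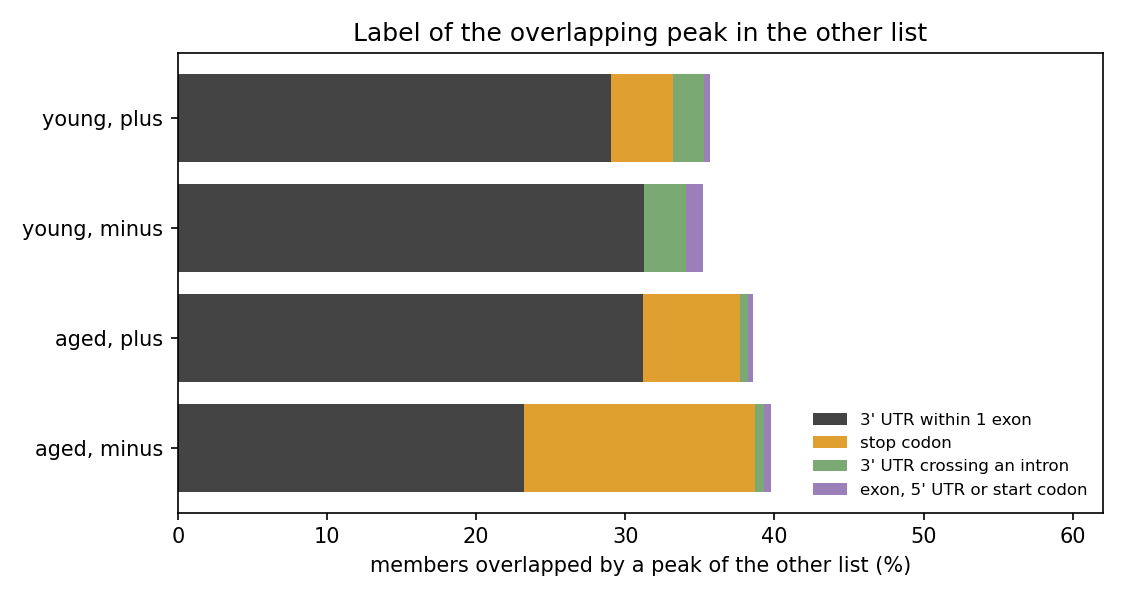
Percentage of members overlapped by a peak of the other list (x axis) for each list and strand (y axis), coloured by the label of that peak, members first where a region had several partners. The bars end between 35.2% and 39.8%, and the stop codon part is largest for the aged minus strand, with 15.5%.

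Members with a higher fold within their list had a partner more often, above all in the aged list. With the aged members in 3 classes of similar size by fold, 17.7% (15.1 to 20.6) of the lowest class, with folds up to 1.73, overlapped a young member. In the middle class it was 26.5% (23.3 to 29.9), and in the highest class, from 2.10, it was 36.3% (32.9 to 39.9). Young members gave 26.8% (23.5 to 30.4), 30.4% (27.0 to 34.2) and 33.0% (29.4 to 36.7). Close to the gene end the share depended on the partner's label. Of aged members at most 60 bases from the gene end 12.4% (9.54 to 15.9) overlapped a young member, against 36.1% (32.4 to 40.0) of those over 1000 and up to 5000 bases away. With partners of any label these shares were 52.4% (47.6 to 57.2) and 41.2% (37.4 to 45.2), the other way round. In the young list they were 20.1% (15.6 to 25.4) and 33.4% (29.9 to 37.0) with members, and 30.3% and 37.4% with any label.

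The overlapping members formed 576 pairs, of which 60 had identical boundaries. The 3' edge was the same in 211 pairs (36.6%) and the 5' edge in 133 (23.1%). On the plus strand 44.7% of pairs shared the 3' edge, on the minus strand 28.1%, and there the aged edge lay 45 to 55 bases upstream of the young one in 92 of 281 pairs, against 39 of 295 on the plus strand. The aged member was the wider one in 300 pairs and the young one in 172. The ranks of the 2 folds of a pair were hardly related, with a Spearman rho of 0.07 over the 576 pairs. No deposited fold was below 1.50 and some pairs overlapped by 1 base only, which limits what this rho can show. A fold of at least 3 in both lists was found in 8 pairs.

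The pairs with the highest lower fold were ranked to see which sites were strong in both lists. LZIC, with a young fold of 4.67 and an aged fold of 4.80, had identical boundaries on chromosome 12 (42875556 to 42875705). MEGF6 followed with 4.57 and 3.83 on chromosome 12 (48924106 to 48924255 in the young list), and ZNF783 with 4.80 and 3.69 on chromosome 4 (113515112 to 113515362). MMRN2, which encodes a matrix protein of blood vessels, had folds of 4.00 and 3.29, and its members shared their 3' edge on chromosome 25 (40585337 to 40585636 in the young list). SUV39H2, a histone methyltransferase of heterochromatin, had folds of 3.00 and 5.12 on chromosome 13 (28897875 to 28898074 in the young list). The NF-kappa-B inhibitor gene NFKBIE had 3.00 and 3.04, and the Rab regulator gene TBC1D16 had 3.00 and 3.78. ZNF462 had 3.00 and 3.40, but its members overlapped by 1 base only. TMEM87B (3.00 and 2.96) and the small GTPase gene MRAS (3.31 and 2.95) completed the leading 10.

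Pairs with identical boundaries had the same start and end in both lists. Widths, and most offsets between the edges of a pair, came in steps of about 50 bases, so identity means agreement to such a step. After LZIC the highest of them was that of PAAF1, a gene for a proteasome factor, with folds of 2.86 and 2.79. PDSS1, needed for the side chain of coenzyme Q, had 3.88 and 2.69. DND1, an RNA-binding protein gene of germ cells, had 3.33 and 2.68 on chromosome 5 (49462204 to 49462352), 49 bases from the gene end. NFYA, a subunit gene of a factor that binds CCAAT boxes, had 3.67 and 2.60 on chromosome 20 (15059585 to 15059735).

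**Figure D4:**
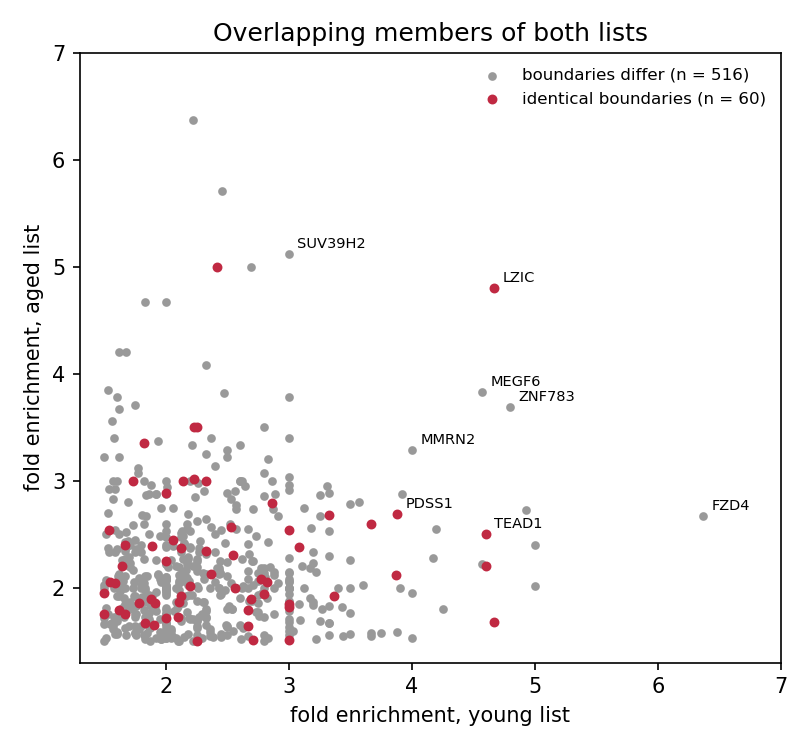
Fold enrichment of the overlapping member pairs (576 in all) in the young list (x axis) and the aged list (y axis), with pairs of identical boundaries in red. Pairs with a fold beyond the axis limits, among them those of RHOBTB2 and N4BP3, are not drawn. Most points lie below a fold of 3 on at least 1 axis, and the points spread without a diagonal trend (Spearman rho 0.07).

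Of the 2945 genes with a member, 676 (23.0%) had one in both lists (shared), 1040 (35.3%) had only young members (young-only) and 1229 (41.7%) only aged ones (aged-only). Transcript levels and depth were not used here, so a gene absent from 1 list may be methylated, expressed or sampled less in it, and these cannot be told apart. In 543 of the 676 shared genes the members overlapped, and in the other 133 the nearest members lay a median of 597 bases apart. Among the aged-only genes 343 (27.9%) had a young peak of another class, against 159 (15.3%) of the young-only genes with such an aged peak. The order of the young-only and aged-only shares of all genes with a member turned under some labels and thresholds. With stop codon peaks within 1 exon added to both lists, 46.1% of genes were young-only and 25.8% aged-only. On the plus strand alone these shares were 40.5% and 35.3%, and with only folds of at least 2.00 they were 49.8% and 34.3%. That limit lies above the aged median fold and below the young one, so it removes a larger share of aged members. The aged-only share stayed the higher one at equal list lengths (48.9% against 30.5%) and on the minus strand alone (47.5% against 30.7%).

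The strongest members of genes with no peak of any label in the other list were named by fold. In the young list these were DYNLL2, a dynein light chain gene (6.50, chromosome 11, 8581238 to 8581437), and CEBPB, a transcription factor of luteinising granulosa cells (6.00, chromosome 13, 78228550 to 78228746). PTGIS, the synthase of prostacyclin, followed with 5.29 on the same chromosome (77587610 to 77587858). IRAK4, a kinase of interleukin-1 and Toll-like receptor signalling, and NEK11 had 4.80, and MARCKS, an actin-binding substrate of protein kinase C, had 4.75. The vessel collagen gene COL8A1 and the amino acid transporter gene SLC38A10 had 4.67, and EXD3 and the antiviral helicase gene ZNFX1 had 4.50. COL8A1 and NEK11 had 2 young members each.

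In the aged list the leading genes of this kind were CTNND2, a catenin gene (5.75, chromosome 16, 62427429 to 62427629), and TNIK, a kinase of WNT target activation (5.00, chromosome 1, 217112006 to 217112156). The TNIK member ended 2 bases and the CTNND2 member 50 bases from the gene end. OTULIN, which removes linear ubiquitin chains, had 4.87 on chromosome 16 (58658890 to 58659139), and BVES, a membrane protein gene of muscle and epithelia, had 4.67. DEFB124, a defensin gene, also had 4.67, with an adjusted p of 0.10. The Rac activator gene DOCK3 and FAM8A1 had 4.33, the tyrosine phosphatase gene PTPN4 had 4.25, and the cullin adaptor gene KLHL9 and ZNF471 had 4.00. FAM8A1 had 2 members.

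Several members in 1 gene were the exception. A single member was found in 91.0% of young and 90.0% of aged genes, and 3 young and 4 aged genes had 4 members. Neighbouring members of a gene were a median of 746 bases apart in the young list and 495 bases in the aged list. Of the 219 aged neighbours 61 (27.9%) carried the same p-value and adjusted p-value, against 14 of 170 (8.24%) young neighbours. Neighbours with the same values lay a median of 149 bases apart in the aged and 147 bases in the young list, against 866 and 916 bases for the others. Such neighbours are not independent measurements.

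ZBTB7A, a transcriptional repressor gene, showed how the members of 1 gene can differ between lists. It had 4 aged members on chromosome 5, with folds of 4.67 (17774199 to 17774349), 2.54 (17775347 to 17775696), 3.58 (17777493 to 17777793) and 3.25 (17778042 to 17778242). Its single young member had the same boundaries as the second of these, with a fold of 1.54. TMEM167A had 3 young members with folds of 2.20, 3.33 and 3.90 and 4 aged members with folds of 1.73, 1.56, 2.30 and 2.00. GYG2, the glycogenin of liver, had 4 aged members with folds from 1.73 to 3.07 and 1 young member (1.75). SMC1A, a cohesin subunit gene on chromosome X, had 4 aged members with folds from 1.58 to 2.18, the widest of 799 bases, and no young peak. ANKRD12 had 3 aged members with folds from 1.50 to 1.60, and an exon peak in each list. The young list led with 4 members each in BBS1, a gene for a ciliary transport complex, RNF214 and ZNF462, where the highest folds were 2.83, 2.36 and 3.00. ARMC10 had 3 members in each list, of which 1 pair had identical boundaries 50 bases from the gene end, with folds of 2.69 and 1.89. FOXK2, a forkhead factor gene, had 3 young members with folds of 1.75, 2.14 and 2.30 and no aged peak.

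Lists of genes were read against the shares of all 2945 genes with a member, 23.0% shared, 35.3% young-only and 41.7% aged-only. The lists are small, and no list was tested. Among genes that act on 3' UTRs, the microRNA silencing and deadenylation list had 9 genes with a member, 5 shared, 1 young-only and 3 aged-only. CNOT9, a subunit gene of the deadenylase complex, was shared with folds of 3.33 and 2.89 at the same 3' edge on chromosome 2 (220574228 to 220574376 in the young list). TNRC6C, which links Argonaute to deadenylation, was shared with 2.17 and 2.22. The poly(A)-binding protein gene PABPC1 was young-only (1.97), and the decapping gene EDC3 (2.62), CNOT2 (2.24) and DICER1 (1.64) were aged-only. CNOT2 had a young stop codon peak and DICER1 a young 3' UTR peak outside the members.

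Genes of 3' end processing, which cleave and polyadenylate the transcript, had 6 genes with a member out of 22, and all 6 were aged-only. These were the cleavage and polyadenylation subunit genes CPSF4 (2.50), CPSF2 (2.12) and CPSF6 (1.60), RBBP6 (2.00), PCF11 (1.70) and NUDT21 (1.67), which encodes a subunit that binds upstream of the poly(A) site. CPSF2, PCF11 and RBBP6 had an exon peak in the young list. Of all genes with a member 41.7% were aged-only, and 6 genes are too few to set against that share. Proteins that bind 3' UTRs had 5 genes with a member out of 34 and none shared. ZFP36L1, which promotes decay of AU-rich transcripts, ELAVL3, which stabilises them, and AUH were young-only (2.78, 2.29 and 1.89). CELF1 (1.80, adjusted p 0.13) and QKI (1.53) were aged-only, and QKI had a young stop codon peak.

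The m6A machinery had 7 of 28 genes with a member, 2 shared, 4 young-only and 1 aged-only. METTL14 had 2 young members of 150 and 151 bases, both with a fold of 2.00, and a single aged member of 400 bases (2.07) overlapped both on chromosome 6 (7020293 to 7020692). The reader-associated gene PRRC2B was shared with 1.75 and 2.33. The splicing regulator genes RBMX (3.33) and HNRNPA2B1 (3.25) and the demethylase gene ALKBH5 (2.50) were young-only. METTL16, which methylates U6 RNA, had 3 aged members, the highest with 2.57.

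Signalling genes of the follicle were mixed. In the TGF-beta, BMP and activin list 5 of 9 genes had members at both ages, with 2 young-only and 2 aged-only genes beside them. BMP2, a ligand, had identical boundaries in both lists on chromosome 13 (48889415 to 48889564), with folds of 3.87 and 2.12. The activin receptor gene ACVR2B had 2.77 and 2.18. The inhibin and activin subunit gene INHBB, a granulosa marker, had 3.33 and 1.67 at the same 3' edge, and the aged member was 350 bases wide against 150 bases. TGFB2 (2.67) and the signal transducer gene SMAD2 (3.50) were young-only, although SMAD2 had an aged 3' UTR peak outside the members. SMURF1 (2.00), which degrades SMAD proteins, and SMAD3 (1.64) were aged-only.

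The steroid and gonadotropin list had 3 shared, 5 young-only and 4 aged-only genes. GATA6, a transcription factor of steroidogenic cells, was shared with 1.87 and 1.88. The orphan receptor gene NR5A2 had 2.54 and 1.64, and these members did not overlap. The cAMP phosphodiesterase gene PDE4D (3.75), PGRMC2 (2.82) and the prostaglandin F receptor gene PTGFR (1.83) were young-only. The sterol sensor gene INSIG1 (2.47), the cholesterol esterifying gene SOAT1 (2.14) and SRD5A1 (1.85) were aged-only, and SOAT1 had a young stop codon peak.

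In the insulin, AKT, FOXO and mTOR list 10 of 18 genes were aged-only, 6 shared and 2 young-only. The receptor substrate gene IRS1 (2.33, 2 members) and RPTOR (2.00), an mTOR complex subunit gene, were aged-only, and RPTOR had a young stop codon peak. The kinase gene GSK3B (2.75) was young-only. TSC1, an inhibitor of mTOR, was shared with 2.40 and 3.14, and the insulin receptor gene INSR with 2.75 and 1.73 in members that did not overlap. Of 11 WNT genes 5 were young-only, 4 aged-only and 2 shared. The shared receptor gene FZD4 had 6.37 and 2.67 on chromosome 21 (8153826 to 8153976 in the young list), and the ligand gene WNT2B had 3.60 and 2.03. TNKS (3.50), a regulator of AXIN, was aged-only. Of 7 Hippo genes 3 were shared and 3 young-only. The target gene activator TEAD1 had identical boundaries with 4.60 and 2.50 on chromosome 15 (39527092 to 39527241), and the kinase gene LATS2 had 2.57 and 2.74.

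Chromatin and zinc finger genes were the longest lists, with 58 and 69 genes. Of 21 chromatin modifier genes 12 were aged-only, 4 young-only and 5 shared, with the deacetylase gene HDAC9 (2.67), SETD5 (2.33) and the methyltransferase gene KMT2D (2.14) aged-only. The demethylase gene KDM4B (3.50) was young-only, and KMT2A was shared, with a pair of identical boundaries at folds of 1.64 and 2.20. Of 23 zinc finger repressor genes 7 were young-only, 8 aged-only and 8 shared. ZNF248 (2.75), ZNF576 (2.61) and ZNF281 (2.15) were young-only, and ZNF827 (2.12, with a young 5' UTR peak), ZNF609 (2.10) and ZNF354C (2.00) aged-only. Of 10 immediate early genes 3 were shared, and 5 of the rest were young-only. The AP-1 genes FOSL1 and FOSL2 were shared, with overlapping members at 2.14 and 2.15 and at 1.88 and 1.90, and FOSL1 had a further aged member at 2.63. KLF13 (2.12) and KLF10 (1.80) were young-only, and IER5L (1.77) was aged-only with a young exon peak.

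DNA damage and cell cycle genes had 4 young-only and 3 aged-only genes and none shared. The replication helicase gene MCM6 (2.75) and the checkpoint kinase gene CHEK2 (2.15) were young-only, and CDKN1B (2.32), the lamin gene LMNB1 (2.03) and MKI67 (1.67) aged-only. MCM6 had an aged 3' UTR peak outside the members. Matrix genes were 3 in each class. COL1A1 (1.78 and 2.09 in the overlapping pair) and VCAN (1.81 and 1.91) were shared, COL5A2 (2.13), COL6A2 (1.92) and SPARC (1.86) young-only, and the laminin gene LAMC1 (1.72), ITGA1 (1.68) and ITGA5 (1.50) aged-only. ITGA1 and the cell cycle gene CDKN1B are the examples with a young stop codon peak given above. Of 12 angiogenesis genes 5 were aged-only, 3 young-only and 4 shared. The growth factor gene PDGFA (2.47 and 3.82, with a shared 3' edge) and its receptor gene PDGFRB (2.00 and 1.72 in the overlapping pair) were shared. ANGPT1 (3.00), EPAS1 (2.37) and FGF1 (2.23) were young-only, although FGF1 had an aged 3' UTR peak outside the members. The oxygen sensor gene EGLN1 (2.60), PDGFRA (2.22) and KDR (2.13) were aged-only.

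**Figure D5:**
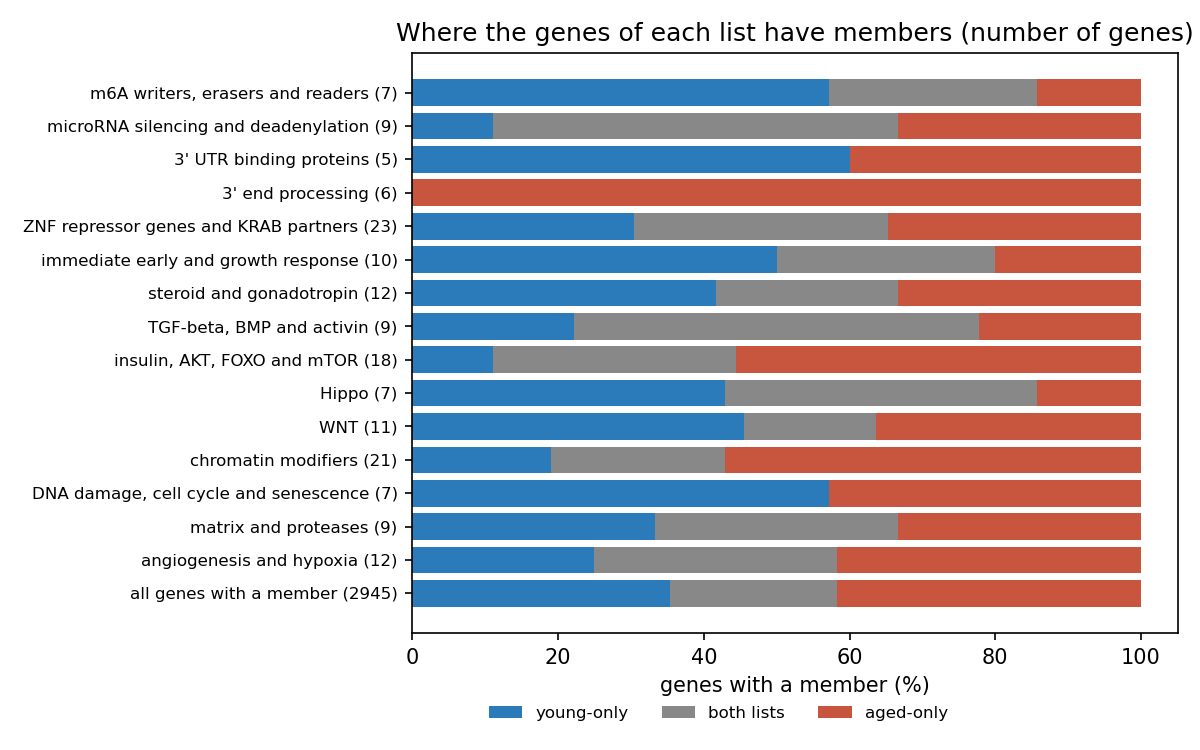
Percentage of the genes with a member (x axis) that were young-only, shared or aged-only, for 15 gene lists and for all 2945 genes (y axis, number of genes in brackets). The 3' end processing bar is aged-only throughout and holds 6 genes, and most other lists hold all 3 classes.

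Few cell type markers had a member. Of 10 endothelial markers 8 had a peak of any label and 4 had a member. These 4, KDR (2.13), PECAM1 (1.78), ERG (1.67) and CLDN5 (1.54), were aged-only, and ERG and CLDN5 had a young stop codon peak. All 4 lay on the minus strand, where 47.5% of genes with a member were aged-only, against 41.7% over both strands. They are too few to set against these shares. Of 5 stromal markers DPT (3.60), NR2F2 (2.67) and OGN (1.71) were young-only, PDGFRA aged-only and COL1A1 shared. Both granulosa markers, INHBB and NR5A2, were shared. PTGFR of luteal cells was young-only, and SCARB1 of theca and luteal cells (1.55), the oocyte gene NOBOX (2.85, adjusted p 0.0245) and CD2 of T cells (1.53) were aged-only. Of pericyte markers PDGFRB was shared and CSPG4 (1.83) aged-only, with a young stop codon peak. No macrophage or surface epithelium marker had a member, although 5 and 4 of them had peaks of other classes. Fewer cells of a type and less methylated RNA per cell cannot be told apart in whole ovary.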

How the data were processed

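Ovarian RNA of 2 age groups was immunoprecipitated for m6A and sequenced beside an input, 4 samples in all, with groups taken from the age labels and, for antibody or input, from the titles. No label says whether the samples came from separate or pooled animals. The deposited lists give, per the file headers, a p-value, an adjusted p-value and a fold enrichment (a linear ratio) for each peak, and the deposited log10 columns were treated as a score. ChIPseeker and DESeq2 appear, without a role, in the submitters' processing notes, and aligner, caller and build were each not given in the sources used here. Sequencing depth is unknown. No deposited peak had a fold below 1.50.

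Positions are printed counting from 1, so each start is 1 above the deposited one. Members were rows labelled 3' UTR whose width equals end minus start. Chromosome numbers and gene ends came from the RefSeq gene table of ARS-UI_Ramb_v3.0, matched by gene identifier for 99.5% of young and 99.6% of aged members. The table's coordinates are not printed, and distances rest on the coincidence of gene ends given in the report. No genome sequence was used, so motifs were not searched. Overlap meant at least 1 base on the same strand, and the code was tested on shifted copies of real young members. Shares have Wilson 95% intervals. Genes of 25 lists were counted by deposited name.

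Members and lists were chosen with earlier results of these data known. Named genes were the 10 highest folds per list among genes without a peak in the other list and without LOC genes, the 10 pairs with the highest lower fold, the 5 leading identical pairs, the 5 genes with the most members and the 3 widest members per list. Of each gene list all genes were named where at most 6 had a member, otherwise up to 3 of each single list and 2 shared. Some genes that this rule names are not reported here. The gene end, offset and neighbour comparisons, and further genes given as examples of them, were chosen after seeing the data. Alternatives were stricter folds, stricter adjusted p, each strand, equal list lengths, other overlap rules, other labels and the gene end. Scripts ran in Python 3.11.15 with numpy 2.4.6, pandas 2.3.3, matplotlib 3.10.9 for the figures and scipy 1.17.1.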

Additional observations from a re-analysis of the deposited data

How the results depend on the processing

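No paired analysis was possible because each age had 1 list, and for the same reason no replicate could be left out. With folds of at least 2.00, 49.8% of genes were young-only, 34.3% aged-only and 15.9% shared, members were 46.7% of young peaks, 19.3% of young members overlapped an aged one, and the median folds were 2.44 and 2.33. With an adjusted p of at most 0.01, young-only genes were 37.7% and aged-only genes 39.8%. At equal list lengths (3656 peaks) genes were 30.5% young-only, 48.9% aged-only and 20.7% shared, members were 41.3% of young peaks, and 22.7% of aged members overlapped. On the plus strand alone genes were 40.5% young-only and 35.3% aged-only, members were 49.3% of aged peaks and 31.2% of them overlapped. On the minus strand the values were 30.7%, 47.5%, 67.4% and 23.2%. With 3' UTR peaks of any width members were 47.3% of young and 66.4% of aged peaks, 32.5% of young ones overlapped and 33.3% of genes were young-only. With partners of any label 29.9% of genes were young-only, 30.1% aged-only and 40.0% shared, and overlap was 35.5% of young and 39.3% of aged members. Requiring 50% of both peaks gave 22.9% and 20.3%. Added after seeing the data were 2 alternatives. With stop codon peaks included, genes were 46.1% young-only, 25.8% aged-only and 28.1% shared, and 41.5% of aged peaks so defined overlapped. Without members at most 60 bases from the gene end, genes were 37.2% young-only and 39.3% aged-only, and 28.7% of aged members overlapped. The cause was not tested, except that fold limits raise a median by construction and added labels widen the class. The common fold limit of 2.00 also lies above the aged median and below the young one, so it removes a larger share of aged members. All other values under these alternatives stayed within the 95% interval of the value reported (34 of 74 values). Unknown depth limits every comparison of levels between the lists.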

Other observations

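Pathways named in the deposited annotation were looked at after the data were seen, for those with at least 30 genes with a peak in a list, and none was tested. Of all young genes with a peak 44.6% had a member and 46.7% a peak labelled stop codon, a label often given at the gene end. Of 55 ribosome genes 7 had a member (12.7%), while 36 (65.5%) had a peak with that label. Of 32 oxidative phosphorylation genes 2 did (6.25%), while 22 (68.8%) had a stop codon peak. The highest young shares were those of phospholipase D signalling (21 of 32 genes, 65.6%) and cAMP signalling (24 of 37, 64.9%). Of all aged genes with a peak 61.7% had a member, and the highest shares were those of insulin resistance and cGMP-PKG signalling, each with 29 of 34 genes (85.3%, 69.9 to 93.6). Motor proteins had the lowest aged share, with 14 of 32 genes (43.8%, 28.2 to 60.7).

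The member with the highest fold of each list overlapped a member of the other list. RHOBTB2 had the highest young fold of all members (7.67, chromosome 2, 42635647 to 42635796), and its overlapping aged member had 2.85. N4BP3 had the highest aged fold (8.50, chromosome 5, 36924303 to 36924502) and a young fold of 1.91 at the same 3' edge. ZNF142 had an aged fold of 6.37 and a young fold of 2.22.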
